A study of Homo sapiens with 4 samples.

Results

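The carcinoembryonic antigen-related cell adhesion molecules (CEACAMs) were examined in HER2-positive breast cancer cells that had become resistant to lapatinib, a drug that blocks the tyrosine kinases EGFR and HER2. The members were the 8 genes CEACAM1, CEACAM3, CEACAM4, CEACAM5, CEACAM6, CEACAM7, CEACAM8 and CEACAM19, out of 16422 named genes on the array. All 8 had a probe, and they were covered by 11 of the 41000 probes. This family was picked because CEACAM6 showed the largest fall shared by both resistant clones, each against its parental cells, among genes well above background on all 4 arrays, so the values of the members in those 2 comparisons are a description and carry no test.

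Total RNA was profiled from parental SkBr3 cells cultured with vehicle, a lapatinib-treated resistant SkBr3 clone (SkBr3/Lap), parental BT474 cells cultured with vehicle and a lapatinib-treated resistant BT474 clone (BT474/Lap), with 1 array for each. Both lines come from human breast cancers with an amplified HER2 gene (ERBB2), and lapatinib had been raised stepwise to 1 μM to obtain the clones. Each resistant sample is 1 clone, so a property of that clone and a property of resistance cannot be told apart. The sample labels give the SkBr3 clone the number 3 and the BT474 clone the number 6, while the study's text has these numbers exchanged, so the clones are called by their parental line here. With 1 array in each group there was no replicate spread, no test and no p-value, and each difference compares a pair of arrays.

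CEACAM proteins belong to the immunoglobulin superfamily and bind one another across and along cell membranes. CEACAM5, CEACAM6, CEACAM7 and CEACAM8 are held on the outer membrane by a glycosylphosphatidylinositol (GPI) anchor, whereas CEACAM1, CEACAM3, CEACAM4 and CEACAM19 span the membrane. CEACAM1 carries inhibitory tyrosine motifs in its long cytoplasmic tail that recruit the phosphatases PTPN6 and PTPN11, and CEACAM3 is a phagocytic receptor of granulocytes. CEACAM5 and CEACAM6 are found on epithelial tumors, CEACAM5 being the classical carcinoembryonic antigen measured in blood as a tumor marker, and CEACAM6 is known for protecting detached cells from death.

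The genes of CEACAM4, CEACAM7, CEACAM5, CEACAM6 and CEACAM3 follow each other without another protein-coding gene between them on chromosome 19, and their promoters are alike in sequence. The 120 bases that precede the start of the 5 members with the largest differences are shown because their expression is compared here. They are the RefSeq sequences of GRCh38.p14, read 5′ to 3′ on the strand of each gene, with the letters CACGTG (an E-box, bound by basic helix-loop-helix factors) in capitals. CEACAM6 lies at chr19:41755410-41755529 on the plus strand, CEACAM5 at chr19:41708506-41708625 on the plus strand, CEACAM7 at chr19:41688271-41688390 on the minus strand, CEACAM3 at chr19:41796467-41796586 on the plus strand and CEACAM1 at chr19:42528482-42528601 on the minus strand.
CEACAM6: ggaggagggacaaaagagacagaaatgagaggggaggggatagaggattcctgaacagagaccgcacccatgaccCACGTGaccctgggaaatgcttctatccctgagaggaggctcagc
CEACAM5: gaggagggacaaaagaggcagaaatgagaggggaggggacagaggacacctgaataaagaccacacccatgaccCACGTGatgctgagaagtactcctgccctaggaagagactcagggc
CEACAM7: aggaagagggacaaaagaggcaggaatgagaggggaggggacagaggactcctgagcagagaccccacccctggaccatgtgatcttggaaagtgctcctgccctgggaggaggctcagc
CEACAM3: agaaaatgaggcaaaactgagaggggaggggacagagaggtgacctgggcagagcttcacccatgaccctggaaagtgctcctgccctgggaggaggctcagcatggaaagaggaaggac
CEACAM1: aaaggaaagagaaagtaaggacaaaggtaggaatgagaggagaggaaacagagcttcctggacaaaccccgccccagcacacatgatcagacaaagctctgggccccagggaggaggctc
Promoter sequences were read for 7 of the 8 members, and that of CEACAM19 was not. Over the 250 bases before the start, identity to CEACAM6 in a global alignment was 79.9% for CEACAM7, 74.6% for CEACAM5, 71.1% for CEACAM3, 69.6% for CEACAM4, 68.2% for CEACAM1 and 58.0% for CEACAM8. The E-box began 45 bases before the start of CEACAM6 and 46 bases before that of CEACAM5, and these letters were in no window of the other 5 members. Windows reached from 250 bases before to 50 after the start, and both strands were searched. Of the 35116 promoters in the same table, 7.26% held the E-box. A GC box (GGGCGG, found in 45.0% of all promoters) lay 211 bases before the start of CEACAM6, 52 before CEACAM1 and 50 before CEACAM8. A TATAAA (11.5% of all promoters) lay 139 bases before the start of CEACAM6. An NF-κB-type motif (GGG, any 3 bases, then TTCC, 6.52%) lay 61 bases before the start of CEACAM4 only, and an AP-1 motif (TGANTCA, 7.71%) was in none of the 7 windows. These 5 motifs were chosen with the expression values known, and a match describes letters and not binding.

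The signal of a probe is given as the processed signal of the scanner software, in arbitrary units, with the software's own error estimate for that spot. Fold changes were computed from log2 signals after the 75th percentile of each array was subtracted, since this percentile was 1115 and 2074 in SkBr3 and SkBr3/Lap, and 1158 and 1681 in BT474 and BT474/Lap. The software marked between 66.6% and 74.0% of the probes of an array as well above background and none of the spots as saturated, and the lowest signal so marked ranged from 13.3 to 16.01. If only 1 signal of a pair was well above background, the difference is a limit written as "at least", and if neither was, no fold change is given. Where the dim signal lay over the lowest one so marked on its array, it was used as read. Such a value is a plain ratio, given without "at least" and drawn as a limit in the figures. The SkBr3/Lap array came from a different slide than the other 3, so slide and resistance cannot be told apart in SkBr3, while both BT474 arrays shared a slide. In extracts of whole cultures, fewer cells expressing a gene and less RNA per cell cannot be told apart.

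CEACAM6, the GPI-anchored member of epithelial tumors and granulocytes, was lower in both resistant clones. Its signal was 365.7 ± 36.9 in SkBr3 and 19.5 ± 4.06 in SkBr3/Lap, against 2564 ± 256 in BT474 and 91.1 ± 10.04 in BT474/Lap. All 4 signals were well above background, and the SkBr3/Lap signal stood just over the lowest value so marked. After scaling, CEACAM6 was 34.9-fold lower in SkBr3/Lap than in SkBr3, a log2 difference of −5.12 ± 0.33, where the error is propagated from the 2 spots and covers measurement within the arrays only. It was 40.8-fold lower in BT474/Lap than in BT474, a log2 difference of −5.35 ± 0.21. The parental lines were themselves unequal, with CEACAM6 6.75-fold lower in SkBr3 than in BT474 (log2 difference −2.75 ± 0.20). The order of the 4 scaled levels was therefore BT474, SkBr3, BT474/Lap and SkBr3/Lap, and neighbors in this order differed by more than the errors of their spots. The fall in SkBr3/Lap depends on how the dim signal is treated, since it was 5.67-fold after a model-based background correction (normexp) with quantile normalization. For comparison, different probes of the same gene gave log2 differences that spanned a median of 0.29 in SkBr3 and 0.28 in BT474.

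Among the 10937 genes well above background on all 4 arrays, CEACAM6 ranked first by the smaller of its 2 falls, ahead of KCNMA1, a potassium channel gene with log2 differences of −4.78 and −4.85. When limits were admitted, giving 11455 genes, SRARP alone ranked ahead of it. Within a single line CEACAM6 was not the lowest gene. It was number 54 from the bottom of 11263 genes measured in SkBr3 and number 10 of 11546 in BT474. The scatter of the changes in both clones shows that most genes clustered around no change, with median log2 differences of −0.08 in SkBr3 and −0.09 in BT474 over these measured genes.

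**Figure D1:**
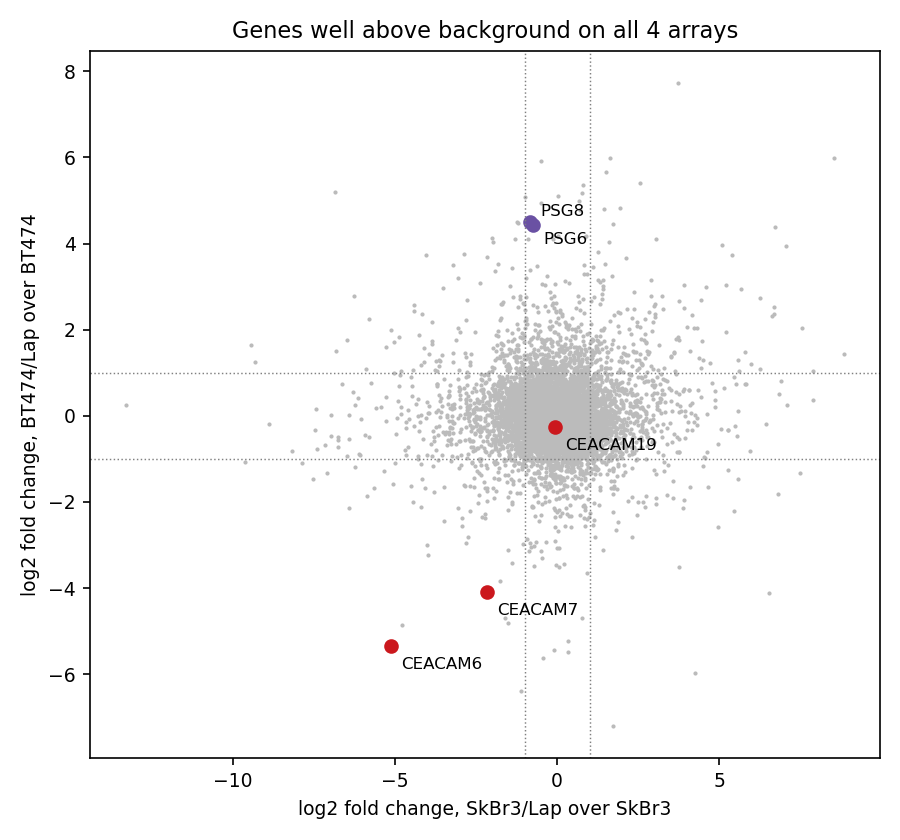
Log2 fold change of each of the 10937 genes well above background on all 4 arrays, in SkBr3/Lap over SkBr3 (x axis) and BT474/Lap over BT474 (y axis), with 3 CEACAM genes in red, PSG6 and PSG8 in purple and dotted lines at 2-fold. CEACAM6 lies at −5.12 and −5.35 and CEACAM7 at −2.17 and −4.09, whereas CEACAM19 lies close to the origin.

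CEACAM7, a GPI-anchored member known best from colon epithelium, was also lower in both clones. The brighter of its 2 probes, both designed on the same transcript, gave 110.0 ± 11.7 and 45.5 ± 5.47 in SkBr3 and SkBr3/Lap, and 860 ± 86.1 and 73.1 ± 8.12 in BT474 and BT474/Lap. This was 4.50-fold lower in SkBr3/Lap (log2 difference −2.17 ± 0.23) and 17.1-fold lower in BT474/Lap (−4.09 ± 0.22). With normexp these were 2.06-fold and 9.84-fold, and the mean over both probes gave 11.6-fold in BT474/Lap. The other CEACAM7 probe read 4.004 and 3.08 in SkBr3 and SkBr3/Lap, neither well above background, and 184 and 33.8 in BT474 and BT474/Lap. It gave no fold change in SkBr3 and a 7.89-fold lower value in BT474/Lap, so the SkBr3 difference of CEACAM7 rests on 1 probe. Between the parental lines, CEACAM7 was 7.53-fold lower in SkBr3 by the brighter probe and at least 11.1-fold lower by the other.

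CEACAM5 and CEACAM3 were detected in parental BT474 cells and not well above background on the other 3 arrays. CEACAM5, the carcinoembryonic antigen, read 45.5 ± 6.74 in BT474, 4.49 ± 4.30 in BT474/Lap, 4.89 ± 4.87 in SkBr3 and 3.96 ± 3.95 in SkBr3/Lap. In BT474/Lap it was lower by at least 4.51-fold, a limit that fell under 2-fold when normexp was used, where the log2 difference was −0.55. CEACAM3, the granulocyte receptor, read 206.7 ± 21.1 in BT474, 10.5 ± 3.95 in BT474/Lap, 4.21 ± 4.20 in SkBr3 and 15.1 ± 3.54 in SkBr3/Lap. In BT474/Lap it was lower by at least 20.5-fold, a limit that was 4.24-fold with normexp and 10.5-fold with 16 added to the signal. No fold change could be given in SkBr3 for either gene. In parental SkBr3, CEACAM5 was at least 2.74-fold and CEACAM3 at least 12.4-fold lower than in parental BT474. The CEACAM5 difference between the parental lines fell under 2-fold with normexp (1.46-fold) and with 16 added to the signal (1.85-fold), and the CEACAM3 difference was at least 4.24-fold with normexp.

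CEACAM1, the member with inhibitory tyrosine motifs, was higher in SkBr3/Lap and differed little in BT474/Lap. Its brightest probe (on transcript NM_001712) read 16.04 ± 4.27 in SkBr3, which was not well above background, and 420 ± 42.1 in SkBr3/Lap, with 559 ± 56.0 and 611 ± 61.2 in the BT474 pair. CEACAM1 was 14.1-fold higher in SkBr3/Lap by this probe, and 1.33-fold lower in BT474/Lap (log2 difference −0.41 ± 0.20). The SkBr3/Lap value is a plain ratio, since the dim SkBr3 signal lay just over the lowest one well above background on its array (16.01). It was 4.20-fold with normexp, 7.36-fold with 16 added to the signal and 6.72-fold as the mean over the probes. The 2 other probes, both on transcript NM_001024912, read 10.3 (not well above background) and 19.2 in SkBr3 and 145 and 102 in SkBr3/Lap. They were at least 4.87-fold and 2.85-fold higher there, so the direction was shared by the 3 probes and the size was not. In BT474 and BT474/Lap they read 74.7 and 71.6, and 128 and 176, with log2 differences of −0.60 ± 0.22 and −0.08 ± 0.21. In parental SkBr3, CEACAM1 was 33.5-fold lower than in BT474 by the brightest probe (a plain ratio with the same dim signal) and 6.42-fold lower by the probe measured in both.

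The remaining members showed no 2-fold difference in either clone. CEACAM19, a transmembrane member encoded away from the others on the same chromosome, read 681 ± 68.2 and 1212 ± 121 in SkBr3 and SkBr3/Lap, and 684 ± 68.6 and 826 ± 82.7 in BT474 and BT474/Lap. Its scaled log2 differences were −0.06 ± 0.20 in SkBr3, −0.27 ± 0.20 in BT474 and 0.05 ± 0.20 between the parental lines. CEACAM4, a granulocyte receptor, read 22.1 ± 4.48 and 27.5 ± 4.45 in SkBr3 and SkBr3/Lap (log2 difference −0.58 ± 0.37), and its signals of 15.1 and 12.6 in BT474 and BT474/Lap were not well above background. CEACAM8, the granulocyte partner of CEACAM6, read between 2.94 and 4.14 and was not well above background on any array.

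**Figure D2:**
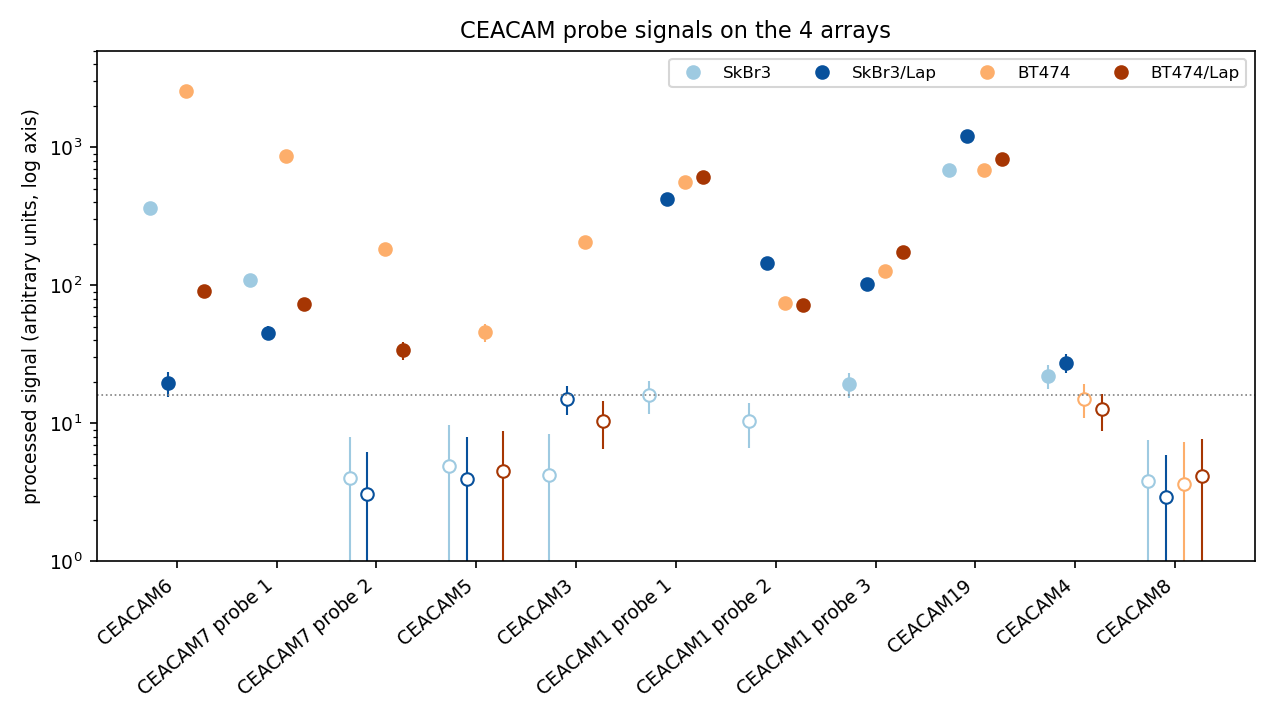
Processed signal (arbitrary units, log axis, before scaling between arrays) of the 11 CEACAM probes on the 4 arrays, with the software's error for the spot. Filled points were well above background, open points were not, the dotted line marks the highest of the 4 arrays' lowest signals so marked (16.01), and bars that would reach below the axis are cut off there. CEACAM6 and CEACAM7 are brightest in BT474, CEACAM1 is dim in SkBr3 only, and CEACAM19 is similar on all arrays; levels of different probes are not comparable.

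Counted together, 5 members had a signal of at least 100 on at least 1 array (CEACAM1, CEACAM3, CEACAM6, CEACAM7 and CEACAM19), and CEACAM4, CEACAM5 and CEACAM8 did not. Of these 5, CEACAM6 and CEACAM7 were at least 2-fold lower in SkBr3/Lap, where 12.9% of the 12136 genes with such a signal were lower, and CEACAM1 was higher, where 13.4% were. In BT474/Lap, CEACAM3, CEACAM6 and CEACAM7 were lower (5.16% of all genes) and no member was higher (8.56%). CEACAM5 would be the 4th if no minimum signal were asked for. CEACAM6 and CEACAM7 were lower in both clones, as were 1.21% of all genes, no member was higher in both (2.46%), and none was 2-fold higher in one and 2-fold lower in the other (2.56%). The family was chosen on these comparisons and CEACAM3 reached the minimum signal in parental BT474 alone, where it was high, so nothing is read from these shares.

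**Figure D3:**
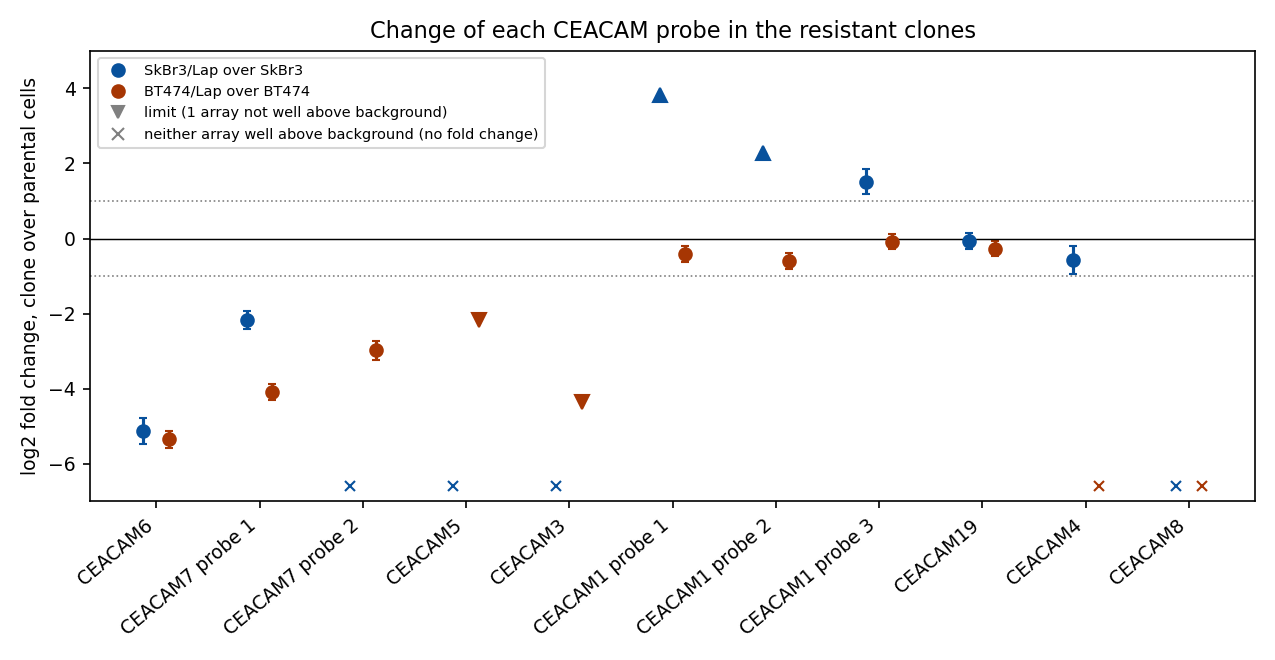
Log2 fold change of each CEACAM probe in SkBr3/Lap (blue) and BT474/Lap (orange) over parental cells, after 75th percentile scaling. Bars are errors propagated from the 2 spots, triangles are limits, crosses at the lower edge mark pairs with no fold change, and dotted lines mark 2-fold. CEACAM6 is near −5 in both clones, and the 3 CEACAM1 probes lie above the 2-fold line in SkBr3/Lap and near 0 in BT474/Lap.

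The parental lines differed from each other as well. CEACAM1, CEACAM3, CEACAM6 and CEACAM7 were at least 2-fold lower in SkBr3 than in BT474, 4 of the 5 members with a signal of at least 100, while 19.0% of all genes were lower, 18.6% higher and 37.6% different in either direction. CEACAM5 was lower as well, except in the 2 settings named above, and CEACAM4 was at least 1.44-fold higher in SkBr3. CEACAM3 reached a signal of 100 in parental BT474 alone, where it was high, so nothing is read from the 4 of 5. The comparison between the parental lines uses the same parental arrays as the other 2, and it was described rather than tested.

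The genes whose values ran most like CEACAM6 over the 4 arrays were ranked by the distance between scaled log2 values centered on their mean, among 11055 genes well above background in both parental lines. The nearest was CALML5 (distance 1.14), an epidermal calmodulin-like protein, followed by BRINP3 (1.62), ENTPD3 (1.90), an ectonucleotidase, RHOH (2.04), a small GTPase known from blood cells, and CEACAM7 (2.37), with a median distance of 5.89 over all these genes. CALML5 read 51.7 and 7.26 in SkBr3 and SkBr3/Lap, and 804 and 32.5 in BT474 and BT474/Lap. BRINP3 read 79.6, 7.28, 212 and 24.6 in the same order. ENTPD3 read 95.7, 10.2, 808 and 130. RHOH read 165, 7.79, 814 and 175. In SkBr3/Lap all 4 of these genes were not well above background, so CEACAM6 and CEACAM7 were the only ones of the 6 still measured there. The distances are over 4 points that share arrays and scaling, and they are a description.

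The differences were set out by gene order along chromosome 19. Of the 5 adjacent CEACAM genes, 4 could be compared in BT474/Lap and all 4 were lower, with log2 differences from −2.17 (a limit for CEACAM5) to −5.35 for CEACAM6. Of all genes with a signal of at least 100, which CEACAM5 did not reach, 5.16% were at least 2-fold lower. CEACAM5 and CEACAM3 could be compared only because they were detected in parental BT474, so they could only come out lower. The family was also chosen on this comparison, so nothing is read from the count. In SkBr3/Lap 3 could be compared, and CEACAM6 and CEACAM7 were lower while CEACAM4 differed by −0.58. Of the protein-coding genes between CEACAM3 and CEACAM1, 17 with a signal of at least 100 are described here. In BT474/Lap 1 of these was at least 2-fold lower (CXCL17, −2.0003) and 1 was higher (TMEM145, 1.00), and the median log2 difference was 0.02. Each is 5.88% of these genes, against 5.16% of all genes lower and 8.56% higher. CXCL17 reached a signal of 100 in parental BT474 alone, where it was high. In SkBr3/Lap, 16 were compared, LIPE (−5.43), the hormone-sensitive lipase gene, was lower, none was higher, and the median was −0.10. Of all genes, 12.9% were lower and 13.4% higher there. CEACAM1 and CEACAM8 follow these genes.

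Beyond CEACAM8 lie the pregnancy-specific glycoprotein (PSG) genes, which belong to the same carcinoembryonic antigen family and encode secreted proteins of the placenta. In BT474/Lap, 7 of the 9 PSG genes with a probe were at least 2-fold higher and none was lower, with a median log2 difference of 2.76 and a range of 0.18 to 4.49. For 5 of these 7 genes the BT474 signal was not well above background. Of the 6 PSG genes with a signal of at least 100, all 6 were higher, against 8.56% of all genes with such a signal. PSG1, PSG4, PSG7 and PSG9 reached a signal of 100 in BT474/Lap alone, where they were high, so nothing is read from this share. PSG8 read 121 and 125 in SkBr3 and SkBr3/Lap, and 27.7 and 906 in BT474 and BT474/Lap, 22.5-fold higher in BT474/Lap than in BT474. A 2nd PSG8 probe gave a log2 difference of 2.29 there. PSG4 read 98.6 and 45.7 in SkBr3 and SkBr3/Lap, and 10.6 (not well above background) and 429 in BT474 and BT474/Lap, so that it was at least 18.5-fold higher in BT474/Lap and 4.02-fold lower in SkBr3/Lap. PSG6 was higher by 4.42 and PSG9 by 4.04 on the log2 scale in BT474/Lap, the latter a plain ratio to a dim BT474 signal of 16.1. As the mean over its probes, PSG9 was higher by at least 1.87. The other probes of PSG9 and PSG11 read 18.7 and 12.0 in BT474/Lap and were not well above background in either BT474 array. In SkBr3/Lap, 8 were compared, PSG4 and PSG7 (−1.25) were lower and none was higher. The 2 are 33.3% of the 6 PSG genes with a signal of at least 100, against 12.9% of all genes lower and 13.4% higher. PSG genes are near-identical copies, and 1 transcript may light several of these probes, so the number of PSG genes involved is uncertain. Cross-hybridization between CEACAM5, CEACAM6, CEACAM3 and CEACAM7 was not tested either.

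**Figure D4:**
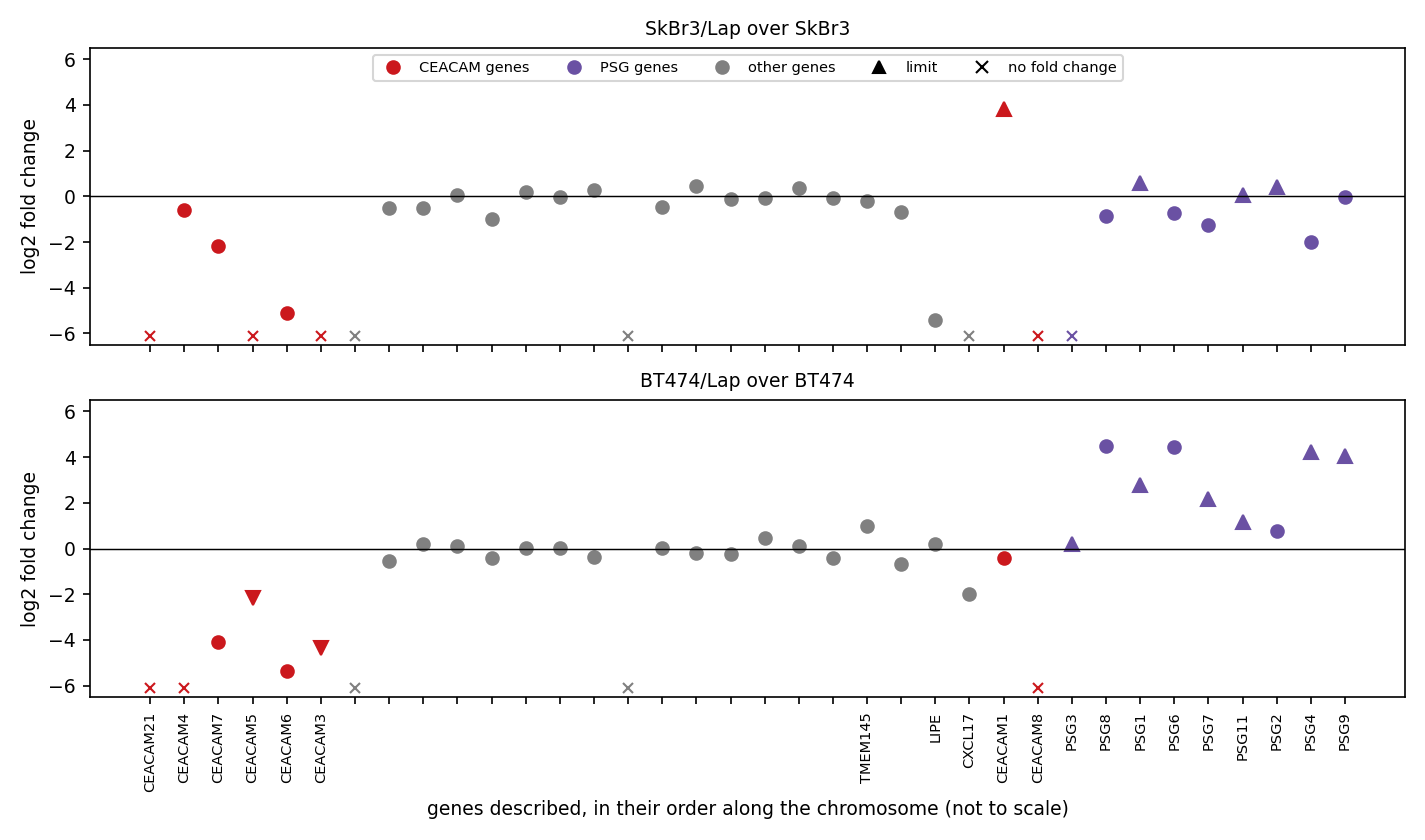
Log2 fold change in SkBr3/Lap (top) and BT474/Lap (bottom) of the genes described here, in their order along chromosome 19 from CEACAM21 to PSG9, with equal spacing and CEACAM genes in red, PSG genes in purple and others in grey, of which only those named in the text carry a name. Triangles are limits and crosses at the lower edge mark genes with no fold change. In BT474/Lap, CEACAM7 to CEACAM3 lie between −2.17 and −5.35 and the PSG genes lie above 0.

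Genes that act with CEACAM proteins were compared next. Of 16 signaling partners, 14 had a signal of at least 100. In SkBr3/Lap 5 of these were at least 2-fold higher (35.7%, against 13.4% of all genes) and none was lower (12.9% of all genes), with a median log2 difference of 0.21 against −0.05 over all genes. In BT474/Lap 1 was higher (7.14%, against 8.56% of all genes) and none was lower (5.16% of all genes), with a median of 0.02 against −0.08. LYN and FGR reached a signal of 100 in resistant clones alone, where they were high. LYN, a Src family kinase that phosphorylates CEACAM1, was higher in both. Its signal was 4.24 in SkBr3 and 11.2 in BT474, neither well above background, and 629 in SkBr3/Lap and 947 in BT474/Lap, giving limits of at least 21.1-fold and 40.9-fold, or 7.34-fold and 10.4-fold with normexp. The other 4 in SkBr3/Lap were FLNA (log2 difference 2.30), a filamin that binds the CEACAM1 tail, FGR (1.62), another Src family kinase, and S100A10 (1.55) and ANXA2 (1.35), which form a membrane complex. The phosphatases were less than 2-fold different, with PTPN6 at −0.17 and PTPN11 at −0.51 in SkBr3/Lap and 0.16 and −0.23 in BT474/Lap.

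Since CEACAM6 and CEACAM7 are GPI-anchored, other GPI-anchored surface proteins were read as a list. Of 22 such genes with a signal of at least 100, 2 were at least 2-fold lower (9.09%, against 12.9% of all genes) and 7 higher (31.8%, against 13.4%) in SkBr3/Lap, with a median of 0.16. In BT474/Lap none was lower (5.16% of all genes) and 5 were higher (22.7%, against 8.56%), with a median of 0.33. MELTF reached a signal of 100 in SkBr3/Lap alone and MSLN in BT474/Lap alone. Each counts among the higher genes there, which raises these shares. FOLR1, the folate receptor, read 966 and 27317 in SkBr3 and SkBr3/Lap, and 98.0 and 800 in BT474 and BT474/Lap, 15.2-fold and 5.62-fold higher in the clones. The placental-type alkaline phosphatases ALPP and ALPG were also higher in both, ALPP by 3.73 and 7.73 and ALPG by 4.49 and 1.30 on the log2 scale in SkBr3/Lap and BT474/Lap. These 2 genes are close copies whose probes may share transcripts, and the BT474 value of ALPG ranged from 1.096 to 4.22 over the processing settings. BST2 (−4.19) and LYPD3 (−2.42) were the 2 lower genes in SkBr3/Lap. BST2 reached a signal of 100 in parental SkBr3 alone, where it was high, which raises the share of lower genes. PLAUR (4.63), the urokinase receptor, and NT5E (3.27) were higher there and not well above background in either BT474 array.

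The enzymes that build and attach the GPI anchor were all detected, with 26 of 26 well above background on each array. In SkBr3/Lap 4 were at least 2-fold lower, which is 15.4% against 12.9% of all genes. None was higher there (13.4% of all genes), and the median was −0.15. The 4 lower genes were PIGN (−1.44), PIGT (−1.39), PGAP1 (−1.10) and GPAA1 (−1.03). In BT474/Lap none was lower (5.16% of all genes), and the median was −0.05. PGAP1 was higher there (1.81), which is 3.85% of the list against 8.56% of all genes. PIGN, which adds ethanolamine phosphate to the anchor, differed by 0.00 in BT474/Lap.

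Adhesion molecules of other families were mixed. Of 19 with a signal of at least 100, 5 were lower (26.3%, against 12.9% of all genes) and 3 higher (15.8%, against 13.4%) in SkBr3/Lap, with a median of −0.21. The 3 higher genes were CD44, MUC1 and ICAM1, and ICAM1 reached a signal of 100 in SkBr3/Lap alone, where it was high. In BT474/Lap 3 were lower (15.8%, against 5.16%) and 1 was higher (5.26%, against 8.56%), with a median of −0.09. ALCAM, another immunoglobulin superfamily adhesion molecule, read 228 and 68.4 in SkBr3 and SkBr3/Lap, and 621 and 429 in BT474 and BT474/Lap, 6.21-fold and 2.10-fold lower in the clones. The desmosomal cadherin DSC2 was 2.33-fold and 2.41-fold lower. ALCAM in BT474/Lap and DSC2 in SkBr3/Lap dropped under 2-fold in at least 1 processing setting (log2 differences of −0.92 and −0.89 at the least). CD44, the hyaluronan receptor, read 124 and 19894 in SkBr3 and SkBr3/Lap, and 2027 and 2585 in BT474 and BT474/Lap, 86.5-fold higher in SkBr3/Lap and −0.19 on the log2 scale in BT474/Lap. CADM1 had a log2 difference of 1.76 in BT474/Lap and −0.43 in SkBr3/Lap. MUC1, a surface mucin, had log2 differences of 1.17 and −1.36 in SkBr3/Lap and BT474/Lap.

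**Figure D5:**
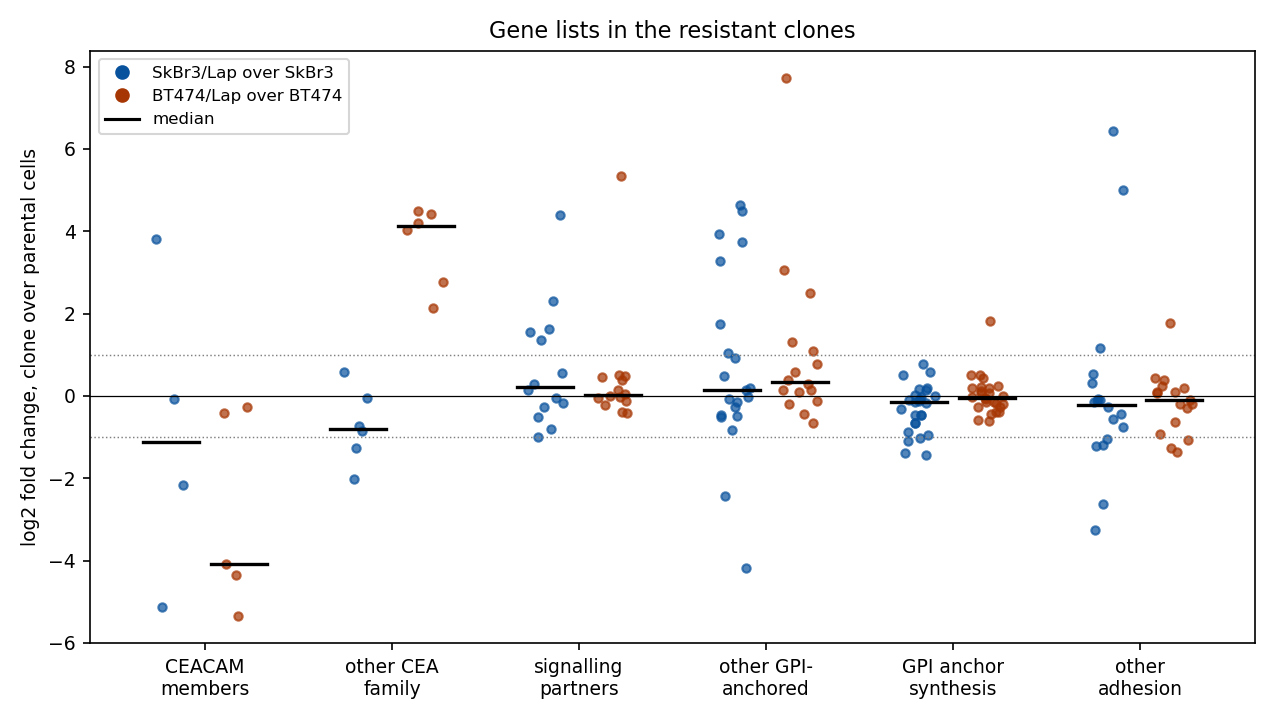
Log2 fold change in SkBr3/Lap (blue) and BT474/Lap (orange) over parental cells of the genes in 6 lists with a signal of at least 100 on at least 1 array, limits included at their value. Points are genes, black lines are medians and dotted lines mark 2-fold. The CEACAM medians are −1.12 and −4.09, and the medians of the other GPI-anchored proteins are 0.16 and 0.33.

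The labelled cell type was compared with marker genes. Of 10 breast epithelial markers, 8, 9, 10 and 10 were well above background in SkBr3, SkBr3/Lap, BT474 and BT474/Lap, and KRT8, KRT18 and KRT19 were bright on all arrays. ERBB2 read 238524 and 118706 in SkBr3 and SkBr3/Lap, and 256346 and 237327 in BT474 and BT474/Lap, with log2 differences of −1.90 and −0.65. CDH1, the E-cadherin gene, was not well above background in either SkBr3 array, and ESR1 was not in parental SkBr3. FOXA1, a luminal transcription factor, was 5.40-fold lower in SkBr3/Lap, with −0.75 in BT474/Lap, and EPCAM had log2 differences of −0.14 and −0.93. GATA3, another luminal factor, had log2 differences of 0.96 and 0.26, KRT7 of 0.21 and −0.87, and ESR1 of 0.88 in BT474/Lap. In all, 2 of the 10 were at least 2-fold lower in SkBr3/Lap (20%, against 12.9% of all genes, median −0.14). None was lower in BT474/Lap (5.16% of all genes, median −0.64), and none was higher in either (13.4% and 8.56% of all genes). Since several members are granulocyte or colon genes elsewhere, markers of those cells were read too. Of 15 granulocyte and other leukocyte markers, 6, 9, 5 and 8 were well above background on the 4 arrays in the same order, and PTPRC, ELANE, MPO, FCGR3B and FPR1 were not on any. CAMP, a neutrophil peptide gene, was lower in both clones (−1.38 and −3.42). Of the 5 leukocyte markers with a signal of at least 100, 2 were lower (40%, against 12.9% of all genes) and 1 higher (20%, against 13.4%) in SkBr3/Lap (median 0.67). Of 4 compared in BT474/Lap 1 was lower (5.16% of all genes) and none was higher (8.56%), with a median of −0.67. CD3E and ITGAM reached a signal of 100 in SkBr3/Lap alone, so nothing is read from these shares. CD3E (1.04), ITGAM (0.91) and CD14 (0.67) lay above 0 in SkBr3/Lap, and CSF3R was at least 2.84-fold higher there without reaching a signal of 100. Of 8 colon markers, 2, 5, 3 and 3 were well above background, CDH17 and GUCY2C on none, with LGALS4 at −0.66 and −0.02 and MUC2 at −0.29 and −0.13 in SkBr3/Lap and BT474/Lap. CDX2, an intestinal transcription factor, was 2.87-fold higher in BT474/Lap, and VIL1 was at least 1.99-fold higher in SkBr3/Lap. The part of other cell types in the CEACAM values was not tested.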

How the data were processed

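Total RNA of 4 samples was hybridized to 1-color (Cy3) Agilent Human Whole Genome 4 × 44 K arrays, 1 per group. The authors deposited spot tables whose processed signal is an intensity after background subtraction by Feature Extraction 10.1.1.1 per the file headers, with no scaling between arrays. The methods instead name an earlier version, Cy3 or Cy5 and LOWESS. A deposited table of log2 values has column medians of 0.12, −0.20, 0.11 and −0.05 in SkBr3, SkBr3/Lap, BT474 and BT474/Lap. Subtracting its columns gave the differences of the 75th percentile scale within a median of 0.0014 or less, which settles its scale and direction. Its shift for each probe was not identified.

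From the processed signals, spots of a probe were averaged on the log2 scale and the 75th percentile of the array was subtracted. A gene was represented by its brightest probe. Probes (23680 of 41000) were named through RefSeq accessions and the GRCh38.p14 annotation. Genes with a signal of at least 100 on at least 1 array were kept (12136), and differences of at least 2-fold were counted. Limits replaced the dimmer signal by the lowest one well above background on its array where that was higher. The number of arrays limits the precision. Named genes were the 8 members, the 5 genes nearest to CEACAM6, ERBB2, and in each list the genes 2-fold different in the same direction in both clones and those with the largest difference in each clone. A few genes covered by this rule are not reported here. Other genes in the text were added after their values were seen. The members and the 9 lists were chosen with earlier results of these data known. Alternatives were other scalings (the 75th percentile over probes well above background on all arrays, or the median), quantile normalization, normexp (offset 50, on median pixel intensities, limma 3.58.1 in R 4.3.3) with quantile normalization, the deposited log2 table, 16 added to the signal, outlier spots left out, the mean over probes, other filters, and a 3-fold threshold. Scripts (Python 3.11.15, numpy 2.4.6, pandas 2.3.3, Biopython 1.88 for alignments) were tested on simulated data.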

Additional observations from a re-analysis of the deposited data

Results flagged for a closer look

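Several genes were at least 2-fold different in one clone and not in the same direction in the other. None of these differences between the lines was tested, since each rests on 1 array per group. Log2 differences, SkBr3/Lap before BT474/Lap, were 3.82 (a ratio to a dim signal) and −0.41 for CEACAM1, 6.43 and −0.19 for CD44, and −0.43 and 1.76 for CADM1. They were −1.10 and 1.81 for PGAP1 and −1.44 and 0.0022 for PIGN, 2 genes of GPI anchor synthesis. They were −2.01 and 4.21 (a limit) for PSG4, −0.74 and 4.42 for PSG6, −1.25 and 2.15 (a limit) for PSG7, −0.85 and 4.49 for PSG8, and −0.051 and 4.04 (a ratio to a dim signal) for PSG9. The surface proteins MUC1 (1.17 and −1.36) and LYPD3 (−2.42 and 0.15) also differed, as did LIPE (−5.43 and 0.20) and TMEM145 (−0.21 and 1.00), which are encoded between CEACAM3 and CEACAM1. The SkBr3/Lap array was on a different slide from the others, and its part in these differences was not tested.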

How the results depend on the processing

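No value changed its direction among those at least 2-fold different, and 45 of 49 alternative values of the main counts and of CEACAM6 stayed close to the reported ones. CEACAM6 was 5.67-fold lower in SkBr3/Lap (log2 difference −2.50) and 22.7-fold lower in BT474/Lap (−4.50) with normexp and quantile normalization, and 19.9-fold lower in SkBr3/Lap (−4.31) with 16 added to the signal. Over all settings it ranged from −5.16 to −2.50 and from −5.62 to −4.50. Both settings add a constant to the signal, which shrinks the differences of dim probes by construction. The members different between the parental lines numbered 2 in place of 4 when only genes well above background on all 4 arrays were counted, which leaves fewer genes. Of the members, CEACAM19 changed sign in SkBr3 (−0.10 to 0.09) and between the parental lines (−0.0051 to 0.11). Among other named genes, the 2-fold difference was lost in at least 1 setting for FGR, GPAA1, PIGN, PSG4 and CAMP in SkBr3/Lap (smallest log2 differences 0.34, −0.83, −0.94, −0.88 and −0.9988), for TMEM145 in BT474/Lap (0.75), and for PGAP1 and PSG7 in both (−0.64 and 0.56, and −0.48 and 0.75). Scaling by the median moved the all-gene median to 0.11 (SkBr3/Lap) and −0.29 (BT474/Lap), and the share of higher genes among those 2-fold different from 50.95% to 60.4% and from 62.4% to 45.6%. No paired analysis was possible because each comparison sets 1 array against 1 array and its values come from no test, and no fit of resistance over both lines was run. Signal over background limits CEACAM5, CEACAM8, CEACAM4 and the SkBr3 values of CEACAM3.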
